A study of Gossypium hirsutum with 16 samples.

Results

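GhBRC1-silenced shoot apices of short-branch cotton were compared with those of nulliplex-branch cotton, to measure how far the strains still differed in their transcripts. These are 8 of the 16 libraries of the series, 4 of each strain, chosen by strain and silencing label. Genes were kept where FPKM (the fragments of a gene relative to its length and to the depth of the library) reached 0.5 in at least 4 of these 8 libraries. That left 52452 of 70422 gene IDs, of which 22986 name an A-subgenome chromosome, 23662 a D-subgenome chromosome and 709 a contig, while 5095 are labelled newGene and carry no position. The filter left out 17970 IDs, 1723 of which reached that level in at least 4 of the 8 controls and so could not be compared here.

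The JX silenced group is the strain Jinxian-short branch, which bears short fruiting branches, with GhBRC1 silenced. The 3798 silenced group is strain 3798, which is nulliplex-branch and sets its flowers close to the main stem, likewise with GhBRC1 silenced. JX control and 3798 control are the same strains with the genotype given as control, again with 4 libraries each. All are stem tips of upland cotton (Gossypium hirsutum) at the seedling stage. The labels state neither the treatment of the control plants nor whether replicate libraries are separate plants, so a p-value here reflects the spread between libraries, part of which may be technical. Nothing in the labels says that the strains are otherwise alike, so a strain difference here covers all that separates them and not branch type alone.

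BRC1 is a transcription factor of the TCP family. In Arabidopsis and other plants it acts inside axillary buds, where it gathers signals from auxin, strigolactone, cytokinin and sugar supply and holds back bud outgrowth. Virus-induced gene silencing uses a recombinant virus that carries a piece of a plant gene, which sets the RNA interference of the plant against its own matching transcript. Whether a cotton bud grows out, ends in a flower or stays short sets the branch type, and nulliplex forms of cotton are known to involve a gene of the family of SELF-PRUNING and TERMINAL FLOWER 1, which keeps shoot tips vegetative. The sources used here pair no gene ID with a name, so GhBRC1 itself was not examined and the target gene gives no check of the silencing labels. For the same reason tissue markers were not examined, genes are given by ID with no function, and in whole apices fewer cells of a type cannot be told apart from less RNA per cell.

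Total FPKM ranged from 557590 to 603167 in the 8 silenced libraries, and depth relative to 3798 control 1 ranged from 0.941 to 1.33. Absolute depth is unknown. Among the silenced libraries, those numbered 4 in each strain stood apart from the other 3 of their group, as did 3798 control 3 among the controls. JX silenced 4 had 121 genes at 1 FPKM or more that the 7 other silenced libraries each held at a level over 8-fold lower, while those 7 libraries had between 6 and 15 such genes each. Results below are therefore given with and without both libraries numbered 4, and results that use controls also without 3798 control 3. The part of these libraries in the results was measured in that way alone, and why they stand apart was not tested.

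In silenced apices the strains lay about as far from each other as libraries of the same strain did. Distance between 2 libraries was taken as the root mean square difference in log2(FPKM + 0.5) over the 52452 genes. It was 0.475 between strains (range 0.369 to 0.626 over 16 pairs), against 0.476 within JX silenced (0.403 to 0.590 over 6 pairs) and 0.442 within 3798 silenced (0.390 to 0.4997 over 6 pairs). In controls the same distance was 0.659 between strains (0.411 to 0.750), against 0.396 within JX control and 0.510 within 3798 control. Of the 8 silenced libraries, 4 had their nearest neighbour in the other strain, and the closest pair of all 8 was JX silenced 3 with 3798 silenced 3, at 0.369. Among the controls 1 of 8 did so, 3798 control 3.

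Subtracting the mean squared distance within strains from that between strains, and taking the square root, gives a strain gap free of the average spread within groups. The gap was 0.120 in silenced apices, against 0.475 in controls. As squares, the silenced gap was 6.36% of the control gap. Replicate numbers were not used as pairs. An effect shared by same-numbered libraries of both strains would make the gap and the test below understate the strain difference. Whether that occurred was not tested. For the silenced libraries an exact one-sided permutation test over the 35 ways to divide 8 libraries into 4 and 4 gave p = 0.229, so the excess of between-strain over within-strain distance was not larger than the spread between replicates. For the controls the same exact permutation test gave p = 0.0286, the smallest it can give. With both libraries numbered 4 left out, the silenced gap was 0.114 and its exact permutation p was 0.2, where 3 against 3 cannot go below 0.1. Without 3798 control 3 the control gap was 0.597, again with p = 0.0286 by the exact permutation test. The silenced excess rested on single libraries: as a square it was 0.0143 with all 8, -0.00174 without 3798 silenced 1, 0.00327 without JX silenced 4, 0.00872 without 3798 silenced 3, 0.0227 without JX silenced 1 and 0.0351 without JX silenced 3.

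**Figure D1:**
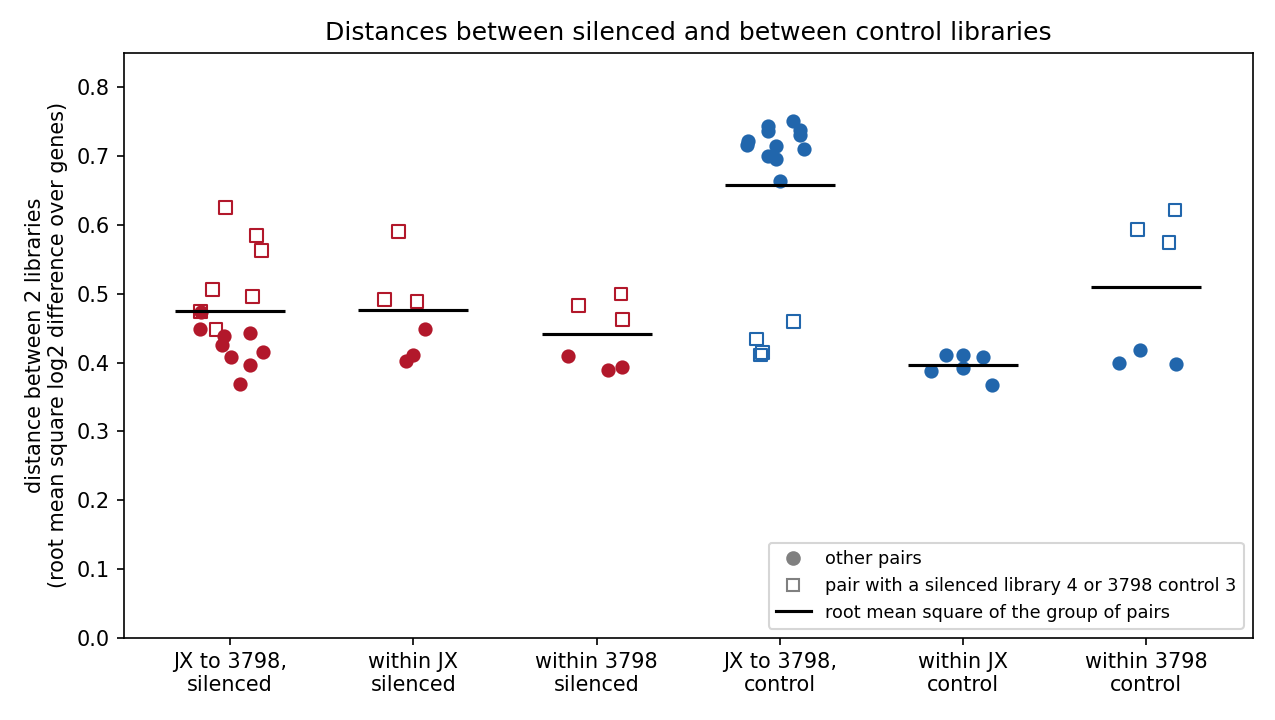
Distance between pairs of libraries (y axis, root mean square log2 difference over genes), by the kind of pair (x axis), with silenced pairs in red and control pairs in blue. Open squares are pairs that hold a silenced library 4 or 3798 control 3, and lines are root mean squares. Silenced pairs between strains (0.369 to 0.626) cover the range within strains, while most control pairs between strains lie above 0.6.

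Gaps between the other pairs of groups place the silenced groups relative to the controls. JX silenced lay 0.569 from JX control, and 3798 silenced lay 0.413 from 3798 control. JX silenced was nearer to 3798 control, at 0.445, than to the controls of its own strain, and 3798 silenced was farthest from JX control, at 0.631. Leaving out both libraries numbered 4 and 3798 control 3 gave 0.637 for JX silenced to JX control, 0.450 for 3798 silenced to 3798 control, 0.497 for JX silenced to 3798 control and 0.696 for 3798 silenced to JX control, the same order. These gaps share groups with one another and the differences between them were not tested.

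Gene by gene, few differences passed the test. Limma's moderated test on log2(FPKM + 0.5), fitted to the 8 silenced libraries with Benjamini-Hochberg adjustment over all 52452 genes and a threshold of 0.05, called 2 genes (0.00381%), 1 higher and 1 lower in JX. An unadjusted p under 0.05 was reached by 4221 genes (8.05%). Between the 8 controls the same fit called 13757 genes (26.2%), 8200 higher and 5557 lower in JX, and 21507 (41.0%) when 3798 control 3 was left out. The count of 13757 hangs on the threshold. Its lowest limma adjusted p was 0.0086, and at a threshold of 0.01 the 8 controls gave 2 called genes. The typical standard error of a log2 difference was alike in both, with a median of 0.154 in silenced and 0.155 in control apices, so the larger count in controls goes with larger differences. Without both libraries numbered 4 the silenced comparison called 4 genes (0.00763%), 1 higher and 3 lower in JX, with 4101 at an unadjusted p under 0.05. None of these 4 was among the 2 called with 8 libraries. Leaving out 1 silenced library at a time gave 0 to 2 called genes.

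Gh_Contig00640G000400 was the gene called higher in JX with 8 libraries. It was at 17.6, 12.7, 13.6 and 13.9 FPKM in JX silenced 1 to 4, against 6.37, 6.48, 6.14 and 5.70 FPKM in 3798 silenced 1 to 4. The groups did not overlap, and both libraries numbered 4 lay with their own group. The log2 difference was 1.16 (SE 0.111, limma adjusted p = 0.047). In controls the groups overlapped, with 8.70 ± 2.88 FPKM in JX against 6.65 ± 1.30 FPKM in 3798 (SD, n = 4 each). Without both libraries numbered 4 the log2 difference was 1.14, and the call was lost (limma adjusted p = 0.096).

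Gh_D07G023800, on chromosome D07, was the gene called lower in JX with 8 libraries. It was at 3.67, 3.42, 2.86 and 3.62 FPKM in JX silenced 1 to 4, against 7.83, 8.498, 8.44 and 10.8 FPKM in 3798 silenced 1 to 4, with no overlap. The log2 difference was -1.27 (SE 0.125, limma adjusted p = 0.047), and -1.20 without both libraries numbered 4, where it no longer passed (limma adjusted p = 0.067). Its controls were at 4.35, 4.94, 3.99 and 12.6 FPKM in JX against 8.68, 9.94, 4.32 and 9.37 FPKM in 3798. In controls too, 3 libraries of each strain kept that order, while JX control 4 was above every 3798 control and 3798 control 3 was among the JX controls. The next genes by p did not pass: Gh_D12G185500 was at 5.27 ± 0.560 FPKM in JX silenced and 2.45 ± 0.386 FPKM in 3798 silenced (limma adjusted p = 0.28), and Gh_D10G260700 at 15.6 ± 0.855 and 24.4 ± 0.915 FPKM in the same groups (SD, n = 4 each, limma adjusted p = 0.24).

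In the 4 genes called without the libraries numbered 4, at least 1 of these libraries did not follow its group. Gh_D11G168900, on chromosome D11, was at 39.2, 34.8, 38 and 36.5 FPKM in JX silenced 1 to 4, against 145, 125, 138 and 41.5 FPKM in 3798 silenced 1 to 4. All JX libraries were close together, and 3798 silenced 4 lay with them and not with its own group. The log2 difference was -1.85 without the libraries numbered 4 (limma adjusted p = 0.0031) and -1.43 with them (limma adjusted p = 0.57). In controls it ran the other way, with 57.9 ± 5.999 FPKM in JX against 38.3 ± 13.5 FPKM in 3798 (SD, n = 4 each), and all 4 JX controls were above all 3798 controls.

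Gh_D12G135300, on chromosome D12, was at 5.24, 3.33, 3.95 and 2.48 FPKM in JX silenced 1 to 4, against 0.319, 0.287, 0.225 and 2.93 FPKM in 3798 silenced 1 to 4. It was low in 3 of the 3798 silenced libraries and at the JX level in the fourth. The log2 difference was 2.57 without the libraries numbered 4 (limma adjusted p = 0.020) and 1.88 with them (limma adjusted p = 0.57). In controls it averaged 5.98 ± 1.80 FPKM in JX against 4.63 ± 1.09 FPKM in 3798 (SD, n = 4 each), so the low level occurred in 3798 silenced 1 to 3 and in no control.

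Gh_A12G001400, on chromosome A12, was at 9.26, 11.5, 7.99 and 14.9 FPKM in JX silenced 1 to 4, against 50.8, 43.7, 40.1 and 9.54 FPKM in 3798 silenced 1 to 4. The log2 difference was -2.18 without the libraries numbered 4 (limma adjusted p = 0.011) and -1.48 with them (limma adjusted p = 0.60). Its controls held both levels in both strains, at 51.4, 55.1, 13 and 49.0 FPKM in JX against 67.1, 70.3, 18.6 and 10.8 FPKM in 3798. Gh_A13G165100, on chromosome A13, was at 0.145, 0.190, 0.151 and 2.07 FPKM in JX silenced 1 to 4, against 2.08, 2.39, 2.19 and 0.209 FPKM in 3798 silenced 1 to 4. Here both libraries numbered 4 were at the level of the other strain. Without them the log2 difference was -2.04 (limma adjusted p = 0.031), and with them -1.06 (limma adjusted p = 0.66). It was low in 3798 controls 1 and 4 too, at 0.138 and 0.166 FPKM, and at 2.04 FPKM or more in the other 6 controls. Gh_A13G023800, second by p among the genes higher in JX in that fit, did not pass, with a log2 difference of 1.38 (limma adjusted p = 0.057).

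**Figure D2:**
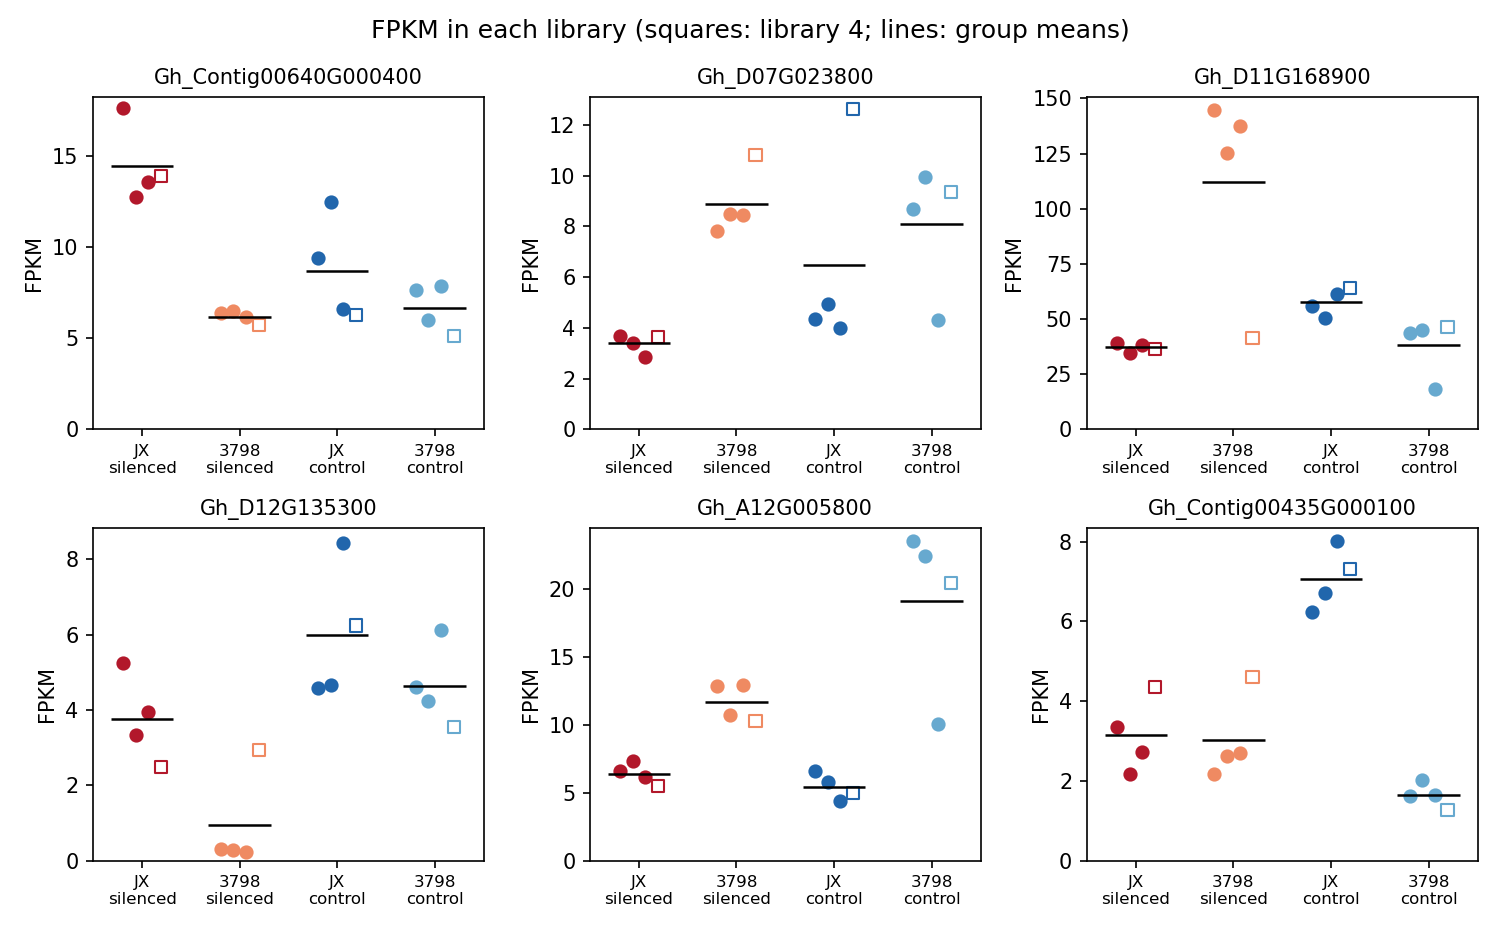
FPKM (y axis) of 6 genes in each library of JX silenced, 3798 silenced, JX control and 3798 control (x axis), with squares for libraries numbered 4 and lines for group means. Silenced groups are apart in all 4 libraries for Gh_Contig00640G000400, Gh_D07G023800 and Gh_A12G005800, whereas 3798 silenced 4 lies at the JX silenced level for Gh_D11G168900 and Gh_D12G135300. Gh_Contig00435G000100 differs between strains in controls and overlaps in silenced apices.

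Strain differences in silenced apices were smaller over the whole range of sizes. The median absolute log2 difference was 0.132 (quartiles 0.0599 and 0.246), against 0.279 in controls (quartiles 0.127 and 0.506), a ratio of 0.475 with a jackknife SE of 0.120 over the 16 libraries. That ratio was 0.451 without both libraries numbered 4, 0.383 without these and 3798 control 3, and between 0.403 and 0.556 with any 1 of the 16 libraries left out. Differences under 0.2 on the log2 scale made up 66.9% of genes in silenced apices, against 37.8% in controls. A log2 difference of at least 1 was found in 287 genes (0.547%) in silenced apices, 199 higher and 88 lower in JX, against 3218 genes (6.14%) in controls. Of the 287, 72 had groups that did not overlap, as did 2331 of the 3218 in controls. Over all genes tested, groups did not overlap for 4.54% in silenced apices and 25.7% in controls. A large difference by itself favours lack of overlap. A log2 difference of at least 2 was found in 18 of the 52452 genes in silenced apices, against 307 in controls. Because spread within groups adds to every such difference, these sizes on average overstate the differences between strains.

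**Figure D3:**
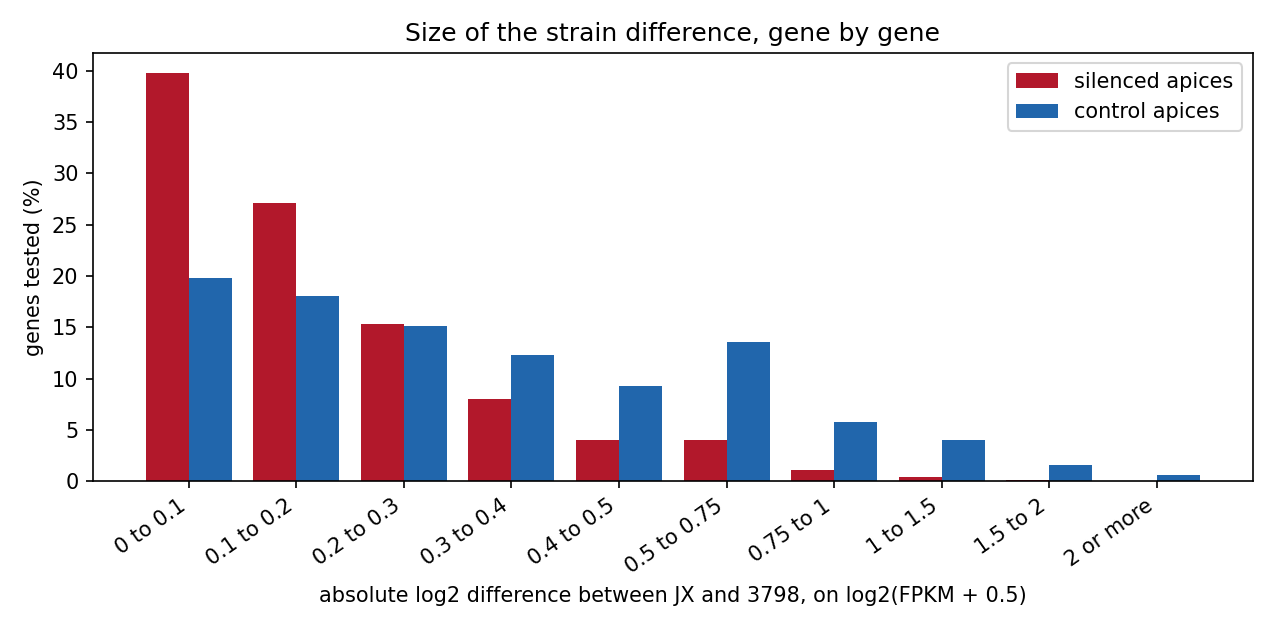
Share of the 52452 genes (y axis, %) by the size of the absolute log2 difference between JX and 3798 (x axis, in bins of unequal width), for silenced (red) and control apices (blue). Silenced apices have more genes in the bins under 0.2 (66.9% against 37.8% in controls) and fewer in each bin above 0.3.

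The strain difference measured in silenced apices leaned the same way as in controls, by a share about as large as its jackknife SE. The silenced and control comparisons share no library. Across genes, which are not independent replicates, the log2 differences in silenced and control apices had a Pearson correlation of 0.36 and a Spearman correlation of 0.34, and the same sign in 62.4% of genes. Projected on the control difference, the silenced difference kept 22.5% of it, with a jackknife SE of 21.3 percentage points over the 16 libraries. It kept 21.9% without both libraries numbered 4, and without these and 3798 control 3 17.3%. Single libraries moved this share by more than 1.5-fold: it was 8.45% without JX silenced 4, 14.5% without 3798 silenced 1 and 36.0% without 3798 silenced 4. The Pearson correlation was 0.14 without JX silenced 4 and 0.52 without 3798 silenced 4, so each library numbered 4 shifts it, in opposite directions, and leaving out both gives 0.35.

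**Figure D4:**
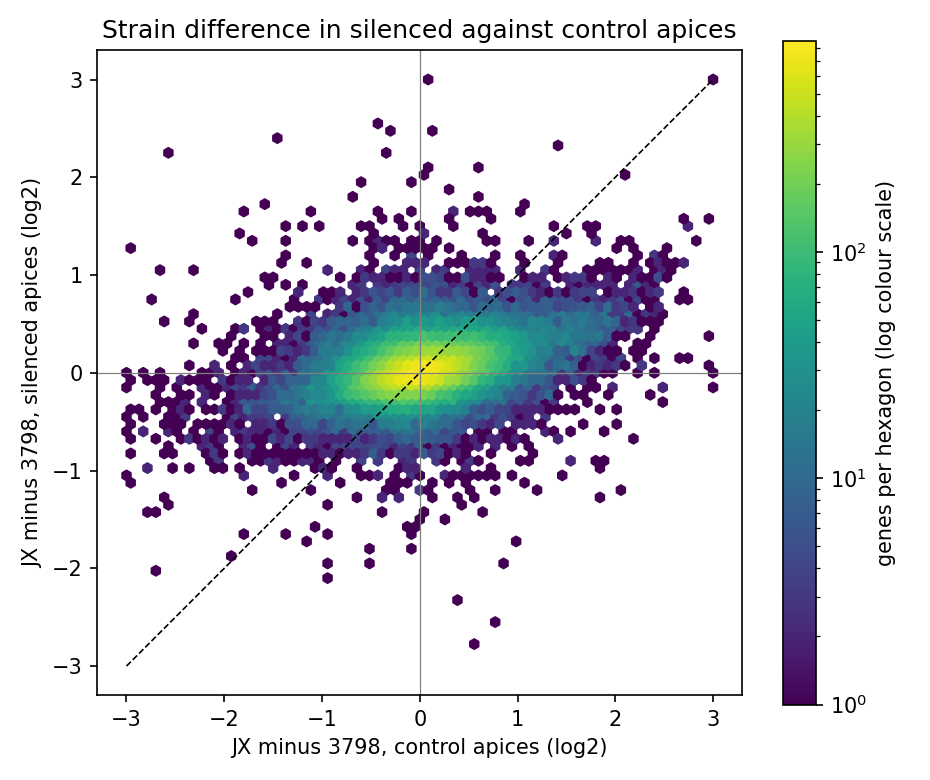
Log2 difference JX minus 3798 in silenced apices (y axis) against that in control apices (x axis), as the number of genes per hexagon on a log colour scale; values beyond 3 are drawn at the edge and the dashed line marks equal differences. The cloud is wider along the control axis than along the silenced axis and tilts upward to the right, with a Pearson correlation of 0.36 across genes.

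Each silenced library was also placed on the line that joins the mean of the 3798 controls, set to 0, to the mean of the JX controls, set to 1, a measure added after the data were seen. JX silenced 1 to 4 lay at 0.245, 0.233, 0.0674 and 0.639, against -0.0832, 0.0476, 0.0467 and 0.441 for 3798 silenced 1 to 4. All but JX silenced 4 were nearer to the 3798 end than to the JX end, and in each strain library 4 was farthest toward the JX end. The means were 0.296 ± 0.243 in JX silenced and 0.113 ± 0.227 in 3798 silenced (SD, n = 4 each), a difference of 0.183 within the spread between replicates (exact two-sided permutation test, p = 0.343). After both libraries numbered 4 were left out, the means were 0.182 ± 0.0992 and 0.00370 ± 0.0752 in the same groups (SD, n = 3 each). All 3 JX libraries then lay above all 3798 libraries, a difference of 0.178 at the smallest p that 3 against 3 allows (exact two-sided permutation test, p = 0.1). The difference was 0.0686 without JX silenced 4 alone, 0.117 without 3798 silenced 1 alone and 0.292 without 3798 silenced 4 alone. Library 3 of the 3798 controls lay at 0.578 on this line. A line drawn without it moved every silenced library toward the JX end, with means of 0.411 ± 0.208 in JX silenced and 0.252 ± 0.190 in 3798 silenced (SD, n = 4 each) and a difference of 0.159. There 3798 silenced 4 lay at 0.526 and JX silenced 4 at 0.703, both nearer to the JX end. On that line and without both libraries numbered 4, the means were 0.313 ± 0.0877 in JX silenced and 0.160 ± 0.0624 in 3798 silenced (SD, n = 3 each).

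**Figure D5:**
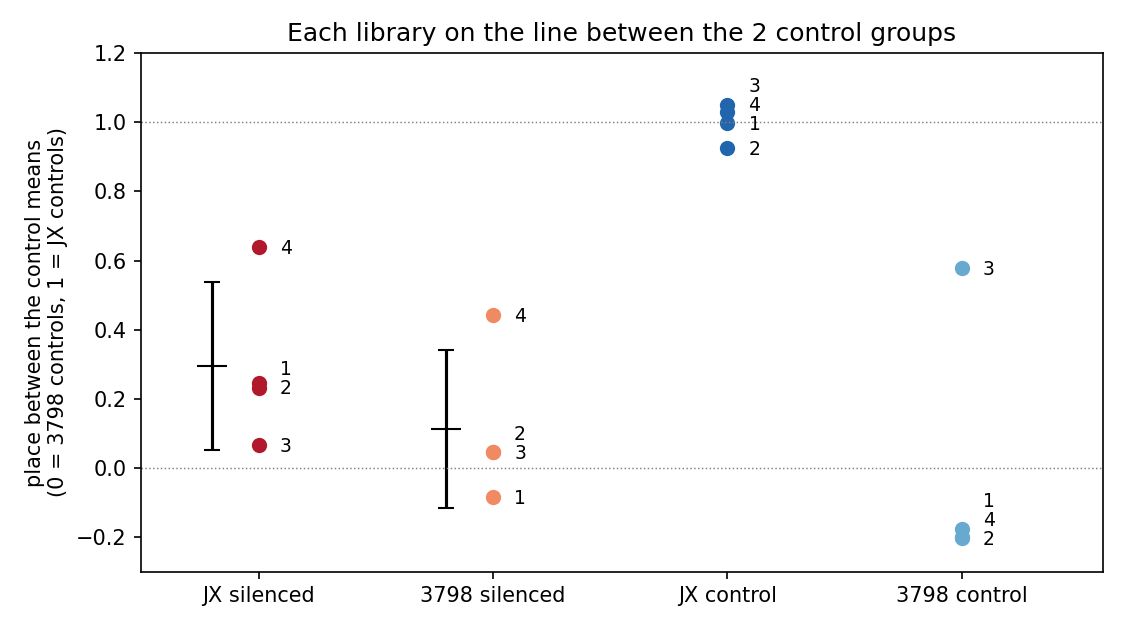
Place of each library on the line between the control means (y axis, no unit, 0 for 3798 controls and 1 for JX controls), by group (x axis), with library numbers beside the points and bars for the mean ± SD of the silenced groups. The silenced libraries numbered 1 to 3 lie between -0.0832 and 0.245 in both strains, and those numbered 4 lie at 0.639 in JX and 0.441 in 3798.

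Genes called between the controls were followed into the silenced libraries, which did not choose them. The 8200 genes higher in JX among controls had a median log2 difference of 0.16 in silenced apices, against 0.68 in controls, and 80.6% kept the sign. The 5557 genes lower in JX had a median of -0.09 in silenced apices, against -0.62 in controls, and 71.7% kept the sign. Over both lists 77.1% kept the sign, with a jackknife SE of 16.5 percentage points over the 16 libraries, against 62.4% of all genes tested. That SE belongs to the share of the lists alone. Both shares come from the same libraries and no SE of their difference was computed, so the difference was not tested. The share of the lists was 77.9% without both libraries numbered 4. The medians moved further in JX than in 3798, a contrast that was not tested: as silenced minus control, the median log2 change of the genes higher in JX was -0.42 in JX and 0.09 in 3798, and that of the genes lower in JX was 0.40 in JX and -0.14 in 3798. The lists were chosen on the controls that enter these changes, which by itself moves the medians toward each other, so the changes are a description and carry no test. When both libraries numbered 4 were left out, the changes in JX were -0.50 and 0.46, and those in 3798 were 0.01 and -0.08. When 3798 control 3 was left out, which also changed the lists, the changes were -0.34 and 0.35 in JX and 0.20 and -0.19 in 3798.

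Whether the strain difference itself differed between silenced and control apices was tested over 16 libraries as an interaction between strain and silencing. Limma called 2 genes (0.00381%), with 11584 (22.1%) at an unadjusted p under 0.05. Without both libraries numbered 4 it called 8 genes (0.0153%), 4 with the smaller and 4 with the larger absolute difference in silenced apices, and without 3798 control 3 it called 8497 (16.2%). Without all 3 libraries it called 10243 (19.5%), of which 97.4% had the smaller absolute difference in silenced apices, against 77.4% of all genes tested. Among these 10243 the median absolute log2 difference was 0.143 in silenced apices, against 0.834 in controls. These genes were chosen on the same silenced and control differences. As most silenced differences were small, that choice by itself favours genes with a large control difference. The 97.4% and these medians are therefore a description and carry no test. Leaving out JX silenced 4 alone gave 250 genes, leaving out 3798 silenced 1 gave 15, and leaving out any of the 13 libraries other than these and 3798 control 3 gave 0 to 4. How many genes show a different strain difference in silenced apices therefore depends on 3798 control 3.

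The interaction genes given first are the 2 in each direction with the smallest p over all 16 libraries. In these, the measured strain difference was smaller in silenced apices, and in some of them had the other sign. Gh_Contig00435G000100 was at 3.35, 2.16, 2.71 and 4.35 FPKM in JX silenced 1 to 4, against 2.17, 2.63, 2.71 and 4.61 FPKM in 3798 silenced 1 to 4, with the library numbered 4 highest in each strain. In controls it averaged 7.07 ± 0.766 FPKM in JX against 1.64 ± 0.307 FPKM in 3798 (SD, n = 4 each). Its interaction of -1.77 did not pass with all libraries (limma adjusted p = 0.074) and did without the 3 (limma adjusted p = 0.00050). Gh_A07G004200, on chromosome A07, was at 23.2 ± 1.59 FPKM in JX silenced and 21.5 ± 2.47 FPKM in 3798 silenced, and at 16.9 ± 1.90 FPKM in JX control and 30.1 ± 2.38 FPKM in 3798 control (SD, n = 4 each), an interaction of 0.93 (limma adjusted p = 0.074). Gossypium_hirsutum_newGene_8863 passed at 0.92 and Gh_A05G057400 at -1.28 (limma adjusted p = 0.028 for both). In silenced apices Gossypium_hirsutum_newGene_8863 differed by a log2 of 0.28, against -0.64 in controls. Gh_A05G057400 differed by -0.37 in silenced apices, against 0.91 in controls. For both, the groups did not overlap in either condition, and the sign of the measured difference turned. The silenced difference itself did not pass for Gossypium_hirsutum_newGene_8863 (limma adjusted p = 0.59) or Gh_A05G057400 (limma adjusted p = 0.57). A reversal was therefore not established. Some genes described above had the larger difference in silenced apices. Without the 3 libraries, Gh_D11G168900 had the lowest adjusted p of all genes (interaction -2.20, limma adjusted p = 6.8e-06). Its log2 difference was then -1.85 in silenced apices, against 0.35 in controls. Gh_D12G135300 also passed there (interaction 2.12, limma adjusted p = 0.00060). With all libraries neither passed (limma adjusted p = 0.082 and 0.14).

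Groups of the strains that did not overlap were fewer in silenced apices. In silenced apices the groups did not overlap for 2379 genes (4.54%), 1313 higher in JX (2.50%) and 1066 lower (2.03%), against 13485 (25.7%) in controls, or 24304 (46.3%) when 3798 control 3 was left out. With both libraries numbered 4 left out, the silenced groups did not overlap for 6933 genes (13.2%), where fewer libraries separate more easily. Libraries shared out at random would separate a gene with a probability of 0.0286 for 4 against 4, and of 0.1 for 3 against 3. Lack of overlap alone therefore marks no single gene as different between strains. In 549 genes the groups were apart in both conditions and in the same direction, 259 higher and 290 lower in JX, which is 23.1% of the silenced list and 4.07% of the control list. The direction was opposite in 77 genes. In either direction 626 genes were apart in both conditions, 26.3% of the silenced list, which is near the 25.7% of all genes that were apart in controls. Taking genes called between controls whose silenced groups did not overlap in the same direction gave 623, 297 higher and 326 lower in JX, with 48 in the opposite direction. Together these 671 genes were 28.2% of the silenced list, near the 26.2% of all genes that were called between controls, so their number is no result about them.

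Of these 623, the IDs with the smallest p in silenced apices are given as a description, since the lack of overlap chose them. Gh_A12G005800, on chromosome A12, was at 6.59, 7.30, 6.15 and 5.46 FPKM in JX silenced 1 to 4, against 12.9, 10.7, 12.9 and 10.3 FPKM in 3798 silenced 1 to 4. In controls it averaged 5.42 ± 0.972 FPKM in JX against 19.1 ± 6.16 FPKM in 3798 (SD, n = 4 each), so JX was low in both conditions and 3798 was lower in silenced apices than in 3 of its 4 controls. Gh_A13G172900, on chromosome A13, was at 12.9 ± 3.56 FPKM in JX silenced and 28.4 ± 3.37 FPKM in 3798 silenced, and at 8.64 ± 2.72 FPKM in JX control and 24.9 ± 8.41 FPKM in 3798 control. Gh_A03G247900 was higher in JX, at 10.04 ± 0.847 FPKM in JX silenced and 6.35 ± 0.803 FPKM in 3798 silenced, and at 11.04 ± 1.12 FPKM in JX control and 8.06 ± 1.83 FPKM in 3798 control. Gh_A02G069500 was at 7.87 ± 1.16 and 4.93 ± 0.342 FPKM in JX silenced and 3798 silenced libraries, and at 7.85 ± 1.76 and 5.09 ± 1.16 FPKM in the controls of JX and 3798 (SD, n = 4 for each group of the last 3 genes). None of these 4 passed in silenced apices (limma adjusted p from 0.28 to 0.55).

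No gene was on in all libraries of one strain and off in all of the other, among the 8 silenced or among the 8 control libraries. On meant 1 FPKM or more, and off meant more than 8-fold below the lowest library that was on. With more than 4-fold below as off, 0 genes followed the strain among silenced and 3 among control libraries. By the same measure 508 genes were on in some of the 8 silenced libraries and off in the rest, so such states occurred without following the strain. Of these, 145 had libraries of both states in both strains, 198 were on in 1 library alone, and 121 of those 198 were on in JX silenced 4. Over all 16 libraries, 153 genes followed the silencing label in this way and 0 the strain. When both libraries numbered 4 were set aside, 4 genes followed the strain. Gh_D12G135300 was on in JX, and Gh_A13G165100, Gh_D06G078900 and Gossypium_hirsutum_newGene_19260 were on in 3798. The last 2 did not reach the filter and were at no more than 0.192 FPKM in JX silenced 1 to 4, against 1.10 to 4.07 FPKM in 3798 silenced 1 to 3. In 3798 silenced 4 they were at 0.0175 and 0.0637 FPKM.

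Genes whose groups did not overlap in silenced apices were spread over the genome. Silenced groups did not overlap for 4.66% of A-subgenome, 4.54% of D-subgenome, 4.09% of contig and 3.98% of newGene IDs, against 27.3%, 27.0%, 19.9% and 13.3% of the same classes in controls. Over the 26 chromosomes the share ranged from 3.46% on A07 to 5.76% on A12 in silenced apices, against 25.8% on A07 to 28.9% on D08 in controls. The strain gap ranged from 0.0778 on D04 to 0.142 on A08 in silenced apices, against 0.444 on D04 to 0.506 on D01 in controls, so the gap was smaller in silenced apices on each chromosome. Neighbouring IDs had little in common, with a correlation of the log2 difference across 46622 neighbouring pairs of 0.038 in silenced apices and 0.052 in controls. With genes divided into 4 equal classes by mean level, from low to high, the groups did not overlap for 3.84%, 3.81%, 4.71% and 5.77% of genes in silenced apices, against 14.7%, 22.2%, 27.8% and 38.1% in controls.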

How the data were processed

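The authors deposited 1 table of FPKM per gene ID and library; the unit comes from the table's name and its values, which are not whole numbers. Per the labels' protocols and the series' design text, RNA was isolated with a plant kit and sequenced on an Illumina instrument. The sources used here name no aligner, counter, genome build, annotation or strandedness. Reads of near-identical A and D copies, or of overlapping genes, may have been split or joined in that counting. Columns were matched to samples by the code in each sample's description, groups and replicate numbers come from the titles, and 0 pairs of libraries held identical values. Depth relative to 3798 control 1 was estimated from genes under 0.5 FPKM, and absolute depth, with any limit from counting error, is unknown. None of the IDs matched the 99454 genes of a RefSeq table.

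FPKM are not counts, so log2(FPKM + 0.5) was modelled with limma 3.58.1 (R 4.3.3), using a variance trend and robust estimation. Fold changes on that scale understate those of low genes. The silenced fit used the 8 silenced libraries, the control fit the 8 controls on the same genes, and the interaction all 16. Tests were two-sided unless stated, adjusted by Benjamini-Hochberg over all 52452 genes. The procedure was checked on simulated data with independent noise for each gene and library. That check holds no library that stands apart over many genes, so it does not cover that feature of these data. Jackknife SEs come from leaving out 1 library at a time, summed over the groups. Named genes are the 2 higher and 2 lower in JX with the smallest p in each fit, and further called or on/off IDs were named after their values were seen. Comparisons, rules and genes were chosen with earlier results of these data known. Alternatives were pseudocounts of 0.1 and 1, other filters, median-ratio and quantile scaling, library weights, a replicate term, other prior variances, a 4-fold limit for off, and libraries left out. Figures were drawn with matplotlib 3.10.9 in Python 3.11.15.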

Additional observations from a re-analysis of the deposited data

Results flagged for a closer look

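In groups of 4 libraries, 1 library was marked where it lay far from the other 3. Of 52 groups of values checked, 7 were marked, where chance marks about 5%. JX silenced 4 had 121 genes on in it alone among the silenced libraries, against at most 15 in the others of its group. Gh_A13G023800 was at 3.77 FPKM in JX silenced 4, with the nearest of its group at 12.4 FPKM. Gh_A13G165100 was at 2.07 FPKM in JX silenced 4, with the nearest of its group at 0.190 FPKM, and at 0.209 FPKM in 3798 silenced 4, with the nearest at 2.08 FPKM. Gh_D12G135300 was at 2.93 FPKM in 3798 silenced 4, with the nearest at 0.319 FPKM. Thus 5 of the 7 concern a library numbered 4, and these genes include ones named because they differ without those libraries. Gh_A05G057400 was at 75.4 FPKM in JX silenced 3, with the nearest at 85.7 FPKM. In JX silenced 2, the library of lowest relative depth of the 8 silenced (0.941), 8028 IDs were listed at 0, with 7141 in the nearest of its group.

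A different strain difference in silenced than in control apices was found for Gossypium_hirsutum_newGene_8863, with an interaction of 0.92, and for Gh_A05G057400, with -1.28 (limma adjusted p = 0.028 for both, lost in 12 and 13 of the alternatives run).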

How the results depend on the processing

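In silenced apices the count of 2 called genes became 0 with no filter on low values (4980 at an unadjusted p under 0.05), in a fit to all 16 libraries (4226) and with no variance trend or robust estimation (4015). It became 4 without both libraries numbered 4, and 0 to 2 with any 1 library left out. Gh_Contig00640G000400 and Gh_D07G023800 each lost the call in 13 alternatives with the sign kept. Between controls, 22028 genes were called with library weights and 5984 to 21507 with 1 library left out: 5984, 6265, 21507 and 7367 without 3798 control 1, 2, 3 and 4, and 8375, 7441 and 7509 without JX control 1, 3 and 4. The interaction called 0 genes with no variance trend or robust estimation (11395 at an unadjusted p under 0.05), 8 without both libraries numbered 4, 10243 without these and 3798 control 3, 10160 with library weights, and 0 to 8497 with 1 library left out. The squared excess of between-strain distance ranged from -0.00174 to 0.0351, turning negative without 3798 silenced 1. With 1 library left out, the ratio of median differences lay between 0.403 and 0.556, the share kept between 8.45% and 36.0%, the difference in place on the control line between 0.0686 and 0.292, and the share of control-called genes keeping their sign between 64.2% and 85.6%. At an adjusted p under 0.01 the fit to the 8 controls called 2 genes, against 13757 at 0.05, and that share was 100% of the 2. Genes following the strain as on or off numbered 4 without both libraries numbered 4. Scaling and pseudocounts changed none of these results beyond 1.5-fold. The split by direction between controls did depend on scaling. From 8200 higher and 5557 lower in JX it became 7587 and 6267 with median-ratio scaling, and 7165 and 6646 with quantile scaling. Of the values of single named genes under all alternatives, 324 kept their side of the threshold, 73 lost and 15 gained a call, and 0 changed sign.

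Replicate numbers were not taken as pairs, since not every same-numbered pair correlated above 0.1: deviations of same-numbered JX and 3798 silenced libraries correlated at 0.099, 0.051, 0.26 and 0.38 for numbers 1 to 4. JX silenced 1, 3 and 4 and 3798 silenced 2, 3 and 4 correlated best with their own number, a hint from the data and not from the design. The limit of 0.1 does not come from the design either. The distances, the strain gap and their exact permutation tests made no allowance for an effect shared by same-numbered libraries. With a replicate block, limma called 0 genes in silenced apices (6647 at an unadjusted p under 0.05, against 4221 with no block), 10620 between controls and 0 for the interaction (11518).

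With 4 libraries a group, exact tests cannot go below a p of 0.0286, unknown depth allows no counting limits, and 1 library decides several values.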
